A study of Mus musculus with 9 samples.

Results

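The 10 genes described here encode dual-specificity phosphatases (Dusp1, Dusp2, Dusp4, Dusp5, Dusp6 and Dusp10) and the Sprouty and Spred inhibitors (Spry1, Spry2, Spry4 and Spred1), which switch off MAP kinase signalling. They were taken by symbol from a gene count table of 55401 rows from mouse hearts. The rule used no expression level, but the list was drawn up with earlier results of these data known. Shares of the members set against all genes are therefore given as a description. Each symbol had 1 row, and all 10 passed the filter on low counts that kept 19051 genes.

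RNA of whole hearts was sequenced in 3 groups of 3 libraries. KO-TAC hearts came from Myc flox/flox; Tcf21 iCre mice, in which tamoxifen (45 mg/kg for 5 days) activates a Cre recombinase expressed under Tcf21, a gene of cardiac fibroblasts, so that Myc is deleted in those cells. These mice underwent transverse aortic constriction (TAC), which narrows the aorta and raises the pressure against which the left ventricle pumps. TAC hearts came from wild-type mice after the same operation, and Control hearts from wild-type mice that are the sham group of the design. The mice were male and 8 to 12 weeks old at surgery, and the TAC and KO-TAC titles carry 12 weeks. The sources used here do not give tamoxifen treatment of the wild-type mice, and no knockout without TAC or Cre-only group was analysed here. Cre, tamoxifen and loss of Myc therefore cannot be told apart in KO-TAC hearts.

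Growth factor receptors activate RAS, RAF, MEK and the kinase ERK, while stress activates the related kinases JNK and p38. The phosphatases remove phosphate from the threonine and the tyrosine that activate a MAP kinase, and Sprouty and Spred proteins act further up, on the steps between receptor, RAS and RAF. Many of these genes are themselves transcribed in response to MAP kinase activity, which makes them negative feedback regulators, and in the heart ERK, JNK and p38 signalling is known to take part in hypertrophic growth. An mRNA level does not measure kinase activity or phosphatase protein.

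Promoter sequences are shown for the members that DESeq2 called in a comparison (Dusp1, Dusp6 and Spry1), for Dusp5, whose window held several motif matches, and for Dusp10, which had the largest negative difference between TAC and Control hearts. Feedback genes are known for promoter elements that respond to signalling. RefSeq promoters on GRCm38.p6 were matched for 8 of the 10 members, all except Dusp4 and Spry4. Each window is the 250 bases before the annotated start, read along the gene's strand: Dusp1 at chr17:26508473-26508722 (minus strand), Dusp5 at chr19:53528895-53529144, Dusp6 at chr10:99262981-99263230, Spry1 at chr3:37639697-37639946 and Dusp10 at chr1:184034131-184034380 (the last 4 on the plus strand). Gene spans given below are from GENCODE M21, whose starts differ from those of RefSeq for some genes. The Dusp1 and Dusp10 windows lie within those spans, and the Dusp5 window runs past the start of its span. Capitals mark matches to the motifs named after the sequences.
Dusp1: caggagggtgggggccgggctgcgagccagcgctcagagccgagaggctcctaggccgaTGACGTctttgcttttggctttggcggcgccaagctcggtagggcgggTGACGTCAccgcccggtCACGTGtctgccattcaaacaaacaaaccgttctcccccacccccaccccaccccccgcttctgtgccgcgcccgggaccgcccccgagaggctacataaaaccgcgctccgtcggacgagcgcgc
Dusp5: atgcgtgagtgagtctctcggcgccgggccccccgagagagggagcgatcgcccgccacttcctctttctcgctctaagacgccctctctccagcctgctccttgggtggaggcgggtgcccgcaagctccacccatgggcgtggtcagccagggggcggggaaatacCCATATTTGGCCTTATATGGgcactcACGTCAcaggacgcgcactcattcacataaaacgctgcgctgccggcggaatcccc
Dusp6: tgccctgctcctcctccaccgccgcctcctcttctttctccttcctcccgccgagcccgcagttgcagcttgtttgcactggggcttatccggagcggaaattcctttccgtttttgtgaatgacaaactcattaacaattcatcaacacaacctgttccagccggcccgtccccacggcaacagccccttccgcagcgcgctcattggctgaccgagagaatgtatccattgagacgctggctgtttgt
Spry1: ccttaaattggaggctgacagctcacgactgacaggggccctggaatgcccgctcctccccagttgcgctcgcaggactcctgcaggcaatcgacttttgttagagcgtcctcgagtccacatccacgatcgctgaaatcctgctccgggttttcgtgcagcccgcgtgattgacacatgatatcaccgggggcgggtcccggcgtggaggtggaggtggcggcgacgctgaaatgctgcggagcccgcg
Dusp10: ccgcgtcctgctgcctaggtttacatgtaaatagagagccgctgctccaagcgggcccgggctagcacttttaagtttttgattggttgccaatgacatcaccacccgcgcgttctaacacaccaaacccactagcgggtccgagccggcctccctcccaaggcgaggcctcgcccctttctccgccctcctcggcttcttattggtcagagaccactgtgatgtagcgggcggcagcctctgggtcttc

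Both strands were searched for 6 motifs. The cyclic AMP response element TGACGTCA lay from -143 to -136 in the Dusp1 window, where 1.55% of 32851 RefSeq promoter windows of the same length held it. Its core TGACGT, which is part of the full element and was also counted within it, lay in addition from -191 to -186 in Dusp1 and from -56 to -51 in Dusp5, against 6.47% of all windows. The E-box CACGTG, the sequence that Myc binds with its partner Max, lay from -126 to -121 in Dusp1 and from -109 to -104 in Dusp2, against 6.02% of all windows. Adjoining CArG boxes, the sequence that serum response factor binds, lay from -82 to -73 and from -72 to -63 in Dusp5, against 1.47% of all windows with at least 1 such box. The windows of Dusp6, Dusp10, Spry1, Spry2 and Spred1 held none of the 6 motifs, and no window of the 8 held the AP-1 sequence TGANTCA (6.75% of all windows) or the ETS sequence CCGGAAG (6.91%). All 8 windows were richer in G and C than the median window of 52.4%, with 56.4% in Dusp6 at the low end and 70.8% in Spred1 at the high end.

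The libraries held 59702513 to 109162107 counts. Myc, the targeted gene, had 4.22, 1.87 and 4.75 CPM (counts scaled to a common library size) in KO-TAC hearts, 8.93, 6.22 and 14.2 CPM in TAC hearts and 2.15, 2.47 and 1.55 CPM in Control hearts. Its KO-TAC hearts lay below its TAC hearts without overlap, with a log2 difference of -1.44 and an adjusted p of 0.555 by edgeR and 0.0818 by DESeq2, and RNA of cells without Cre is part of these values. The hearts expressed all 7 cardiomyocyte markers, while markers of lung epithelium and skeletal muscle summed to at most 9 and 46 counts in a library. The TAC hearts differed most among themselves: the median SD of log2 CPM over all genes was 0.33 in KO-TAC, 0.604 in TAC and 0.171 in Control hearts, and 0.239, 0.456 and 0.241 over the 10 members in the same groups. Separate mice are not named in the labels for each library, and a p-value therefore reflects the variation among these libraries, which may be technical.

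Differences were tested with edgeR's quasi-likelihood test over 19051 genes (adjusted p under 0.05), and every adjusted p for which no other tool is named is from it. None of the 10 members passed in any comparison, and neither did any other gene (0% of 19051 in each). DESeq2 on the same counts called 3 members higher in TAC than in Control hearts, Dusp1, Dusp6 and Spry1, against 4.98% of all genes it tested called higher, and 0 lower against 2.6%. It called 1 member, Dusp1, lower in KO-TAC than in TAC hearts against 0.508% of all genes, and 0 higher against 0.354%. Between KO-TAC and Control hearts it called 0 members, against 0.268% of all genes higher and 0.115% lower. At an unadjusted edgeR p under 0.05, which leaves out any correction, 4 members had higher levels in TAC than in Control hearts (Dusp1, Dusp6, Spry1 and Spry4; 13.2% of all genes) and 1 was lower (Dusp10; 8.08%). At the same level 4 members were lower in KO-TAC than in TAC hearts (Dusp1, Dusp5, Dusp6 and Spry4; 4.51% of all genes) and 0 were higher (2.94%). Between KO-TAC and Control hearts the count was 0, against 3.52% higher and 2.24% lower.

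The calls varied with the tool and with 1 library. With TAC replicate 2 left out, edgeR called Dusp1, Dusp6, Spry1 and Spry4 higher in TAC than in Control hearts, against 13.5% of 19920 genes called higher and 14% lower. With limma-voom and quality weights on all libraries, 4 members were called higher in TAC than in Control hearts (18.2% of all genes) and 1 lower (19.8%). The same tool called 4 members lower in KO-TAC than in TAC hearts (1.93% of all genes) and 0 higher (3.3%), and 0 between KO-TAC and Control hearts (2.4% of all genes higher and 2.8% lower).

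Per transcript length, Dusp1 was the most abundant of the 10 in every group. Its mean was 10.6 ± 1.7 FPKM (CPM per kilobase of exon) in KO-TAC, 28.0 ± 8.1 in TAC and 15.1 ± 3.4 in Control hearts (SD, n = 3 each). Dusp2 stood at the other end, with 0.156 FPKM in KO-TAC, 0.259 in TAC and 0.126 in Control hearts. In Control hearts the order by mean FPKM was Dusp1, Spry1, Spry2, Dusp6, Spred1, Spry4, Dusp10, Dusp5, Dusp4 and Dusp2. Neighbours in that order whose hearts overlapped were Spry1 and Spry2, Dusp6 and Spred1, Spry4 and Dusp10, and Dusp10 and Dusp5. In KO-TAC hearts they were Dusp1 and Spry1, Dusp6 and Spry2, Spry4 and Dusp10, and Dusp10 and Dusp5. In TAC hearts neighbours overlapped throughout the 6 most abundant members, Dusp1, Spry1, Dusp6, Spred1, Spry2 and Spry4, and also for Dusp10 and Dusp4. Dusp6 ranked above Spry2 by mean in KO-TAC hearts (5.37 against 5.18 FPKM) and TAC hearts (9.31 against 4.69 FPKM), and below it in Control hearts (4.36 against 5.80 FPKM).

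**Figure D1:**
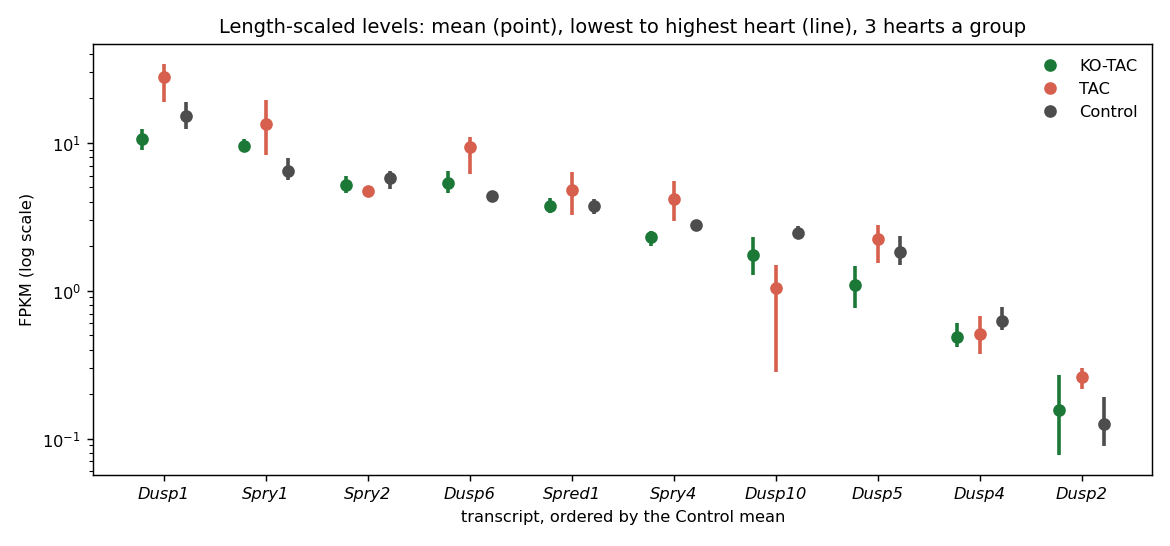
Length-scaled level of each transcript (FPKM, log scale) in KO-TAC, TAC and Control hearts, as the mean of 3 hearts (point) with the lowest and highest heart (line). Dusp1 has the highest mean in every group and Dusp2 the lowest, and the TAC lines are the longest for Dusp10 and Spry1.

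Dusp1, on chromosome 17 (26505590 to 26562128, GRCm38, minus strand), encodes a nuclear phosphatase known as an immediate early gene product that acts mainly on p38 and JNK. It had 40.8, 34.9 and 29.7 CPM in KO-TAC hearts, 114, 62.5 and 102 CPM in TAC hearts and 40.7, 62.4 and 47.0 CPM in Control hearts. All TAC hearts were above all KO-TAC hearts, while TAC replicate 2 and Control replicate 2 were nearly level. KO-TAC hearts were 2.64-fold below TAC hearts, a log2 difference of -1.40 (SE 0.274, adjusted p = 0.255, rank 39 of 19051 by p), which DESeq2 called with an adjusted p of 0.00163. That DESeq2 call was lost without KO-TAC replicate 3 (adjusted p = 0.0643) and held without each of the other libraries. TAC against Control gave a log2 difference of 0.89 (SE 0.271, adjusted p = 0.148), with a DESeq2 adjusted p of 0.0453 that stayed under 0.05 only when TAC replicate 2 was the library left out. KO-TAC against Control gave -0.51 (SE 0.27, adjusted p = 0.851), with overlapping hearts.

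Dusp5, on chromosome 19 (53529109 to 53542431, plus strand), encodes a nuclear phosphatase that is selective for ERK. Its levels were 1.88, 2.70 and 3.60 CPM in KO-TAC hearts, 3.80, 5.82 and 6.92 CPM in TAC hearts and 4.02, 5.79 and 3.70 CPM in Control hearts. The KO-TAC hearts lay below every heart of the other groups, though the gap to the lowest of them was small. The log2 difference was -1.02 for KO-TAC against TAC (SE 0.335, adjusted p = 0.65, 2.03-fold lower) and -0.73 for KO-TAC against Control (SE 0.334, adjusted p = 0.851). TAC and Control hearts overlapped, with a log2 difference of 0.29 (SE 0.332, adjusted p = 0.611).

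Dusp2 and Dusp4, also nuclear phosphatases that are induced by MAP kinase signalling, were scarce. Dusp2 (chromosome 2, 127336159 to 127338376, plus strand), best known from activated lymphocytes and other leukocytes, had 0.537, 0.155 and 0.244 CPM in KO-TAC hearts, 0.518, 0.437 and 0.602 CPM in TAC hearts and 0.194, 0.383 and 0.179 CPM in Control hearts, from 11 to 73 counts a library. Its TAC hearts were above its Control hearts without overlap, with a log2 difference of 1.04 whose SE of 0.614 was the largest among the members in that comparison (adjusted p = 0.333). Its KO-TAC hearts overlapped with both other groups, and KO-TAC replicate 1 alone lay in the TAC range. Dusp4 (chromosome 8, 34807297 to 34819894, plus strand) averaged 1.33 ± 0.29 CPM in KO-TAC, 1.40 ± 0.42 in TAC and 1.72 ± 0.35 CPM in Control hearts (SD, n = 3 each), and all groups overlapped. Its log2 differences were -0.30 for TAC against Control and -0.07 for KO-TAC against TAC (adjusted p of 0.614 and 0.954).

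Dusp6, on chromosome 10 (99263231 to 99267489, plus strand), encodes the cytoplasmic phosphatase that is specific for ERK and a widely used readout of ERK activity. It had 20.1, 16.1 and 14.3 CPM in KO-TAC hearts, 33.7, 19.2 and 34.6 CPM in TAC hearts and 12.8, 13.7 and 14.5 CPM in Control hearts. TAC replicates 1 and 3 were far above the Control hearts and TAC replicate 2 was above them by less, within the KO-TAC range. TAC against Control gave a log2 difference of 1.10 (SE 0.244, adjusted p = 0.133, 2.14-fold higher), with a DESeq2 adjusted p of 0.00683 that ranged from 3.05e-07 to 0.0925 as single libraries were left out. It was lost without any 1 of the Control libraries or without TAC replicate 1. KO-TAC against TAC gave -0.79 (SE 0.243, adjusted p = 0.612), and KO-TAC against Control gave 0.30 (SE 0.242, adjusted p = 0.875).

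Dusp10, on chromosome 1 (184013302 to 184075636, plus strand), encodes a phosphatase of JNK and p38 that acts in the nucleus and the cytoplasm. It had 3.88, 5.07 and 7.04 CPM in KO-TAC hearts, 4.21, 4.51 and 0.856 CPM in TAC hearts and 7.25, 6.82 and 8.35 CPM in Control hearts. Every TAC heart was below every Control heart, and TAC replicate 3 was at 0.115 of the Control mean, so that the TAC hearts spanned 5.26-fold. TAC against Control gave a log2 difference of -1.23 (SE 0.516, adjusted p = 0.219), and -0.79 without TAC replicate 3. KO-TAC against TAC gave 0.74 (SE 0.512, adjusted p = 0.726), which came to 0.30 without TAC replicate 3.

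Spry1, on chromosome 3 (37639947 to 37644598, plus strand), encodes a Sprouty inhibitor of signalling from fibroblast growth factor and other receptors. Its levels were 30.8, 26.2 and 26.0 CPM in KO-TAC hearts, 56.9, 24.1 and 36.0 CPM in TAC hearts and 16.4, 17.1 and 22.9 CPM in Control hearts. Every KO-TAC and every TAC heart was above every Control heart, while KO-TAC and TAC hearts overlapped. TAC against Control gave a log2 difference of 1.05 (SE 0.295, adjusted p = 0.14, 2.07-fold higher), with a DESeq2 adjusted p of 0.0286 that ranged from 3.49e-05 to 0.201 as single libraries were left out and held only without TAC replicate 2, KO-TAC replicate 1 or KO-TAC replicate 3. The difference was 0.67 without TAC replicate 1. KO-TAC against Control gave 0.56 (SE 0.292, adjusted p = 0.851) and KO-TAC against TAC -0.49 (SE 0.292, adjusted p = 0.705). The last came to -0.11 without TAC replicate 1.

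Spry4, on chromosome 18 (38586247 to 38601415, minus strand), encodes another Sprouty inhibitor of this pathway. It had 9.50, 12.1 and 11.3 CPM in KO-TAC hearts, 26.3, 14.0 and 19.2 CPM in TAC hearts and 12.5, 14.4 and 12.5 CPM in Control hearts. The KO-TAC hearts lay below all TAC and all Control hearts, and TAC replicate 2 lay within the Control range. KO-TAC against TAC gave a log2 difference of -0.86 (SE 0.234, adjusted p = 0.508, 1.81-fold lower) with a DESeq2 adjusted p of 0.118. TAC against Control gave 0.60 (SE 0.234, adjusted p = 0.199), and KO-TAC against Control gave -0.26 (SE 0.233, adjusted p = 0.885).

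Of the 4 inhibitors, Spry2 and Spred1 differed least between TAC hearts and the other groups. Spry2 (chromosome 14, 105891947 to 105896819, minus strand) had 9.49, 10.4 and 12.5 CPM in KO-TAC hearts, 9.81, 9.89 and 9.69 CPM in TAC hearts and 10.1, 13.4 and 12.8 CPM in Control hearts. Its TAC hearts differed by only 1.02-fold and all lay just under the lowest Control heart, with a log2 difference of -0.31 (SE 0.185, adjusted p = 0.345). Its log2 difference of -0.16 for KO-TAC against Control (adjusted p = 0.899) turned to 0.05 when library size alone was used for scaling, a setting under which the median of all genes was 0.28. Spred1 (chromosome 2, 117121374 to 117182279, plus strand), which encodes a membrane-bound inhibitor that works with neurofibromin on RAS, averaged 25.3 ± 2.9 CPM in KO-TAC, 32.4 ± 11 in TAC and 25.1 ± 3.0 CPM in Control hearts (SD, n = 3 each). The groups overlapped in every comparison of Spred1. Its log2 difference of 0.37 for TAC against Control (adjusted p = 0.381) was 0.10 without TAC replicate 3.

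**Figure D2:**
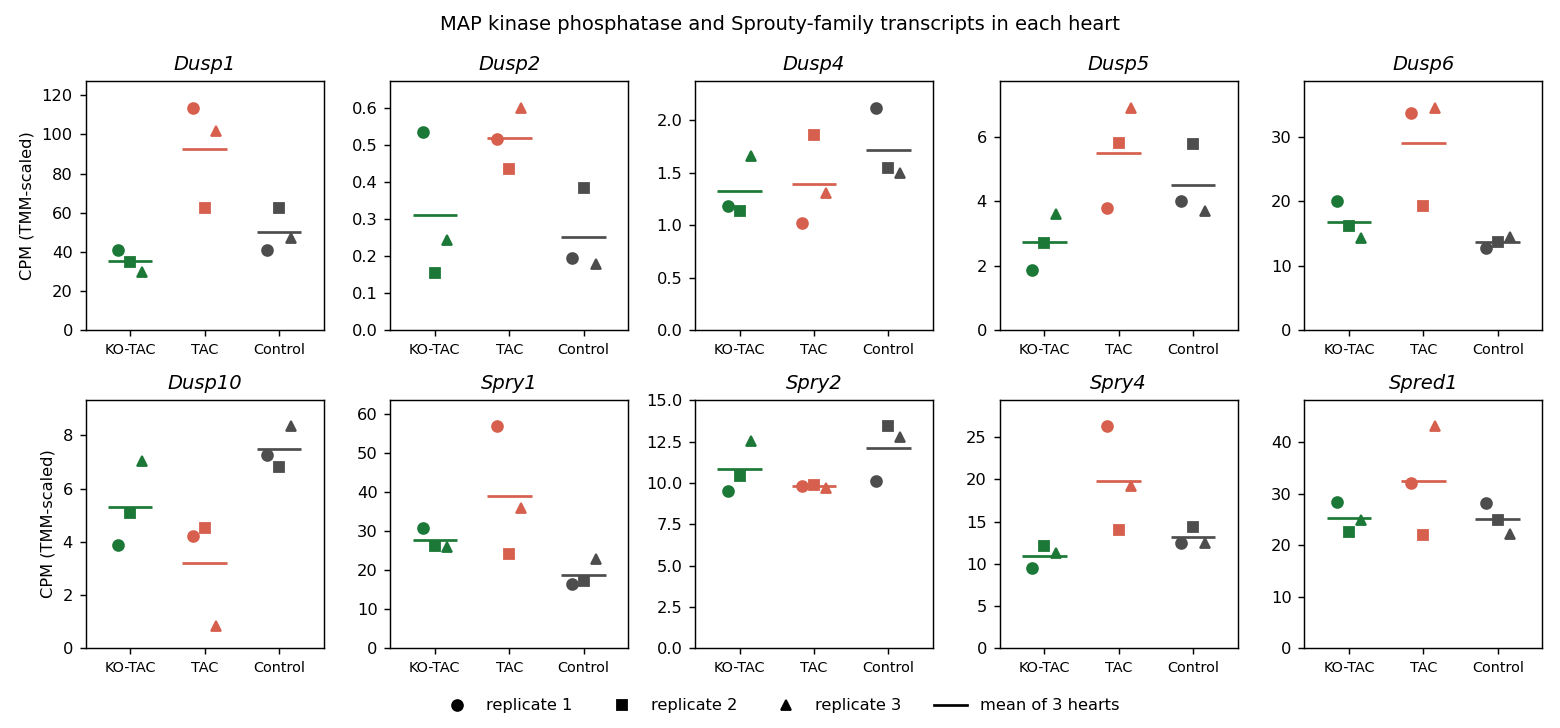
CPM of each of the 10 transcripts in every KO-TAC, TAC and Control heart (points, marked by replicate) with the group mean (bar), 1 panel per gene and a vertical axis from 0. For Dusp1, Dusp6, Spry1 and Spry4, TAC replicates 1 and 3 stand above TAC replicate 2, and for Dusp10 TAC replicate 3 stands far below the rest.

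Over the 10 members the median log2 difference of TAC against Control was 0.48, with 7 higher and 3 lower, where the median of all tested genes was 0.03 and 51.5% were higher and 48.5% lower. KO-TAC against TAC gave a median of -0.61, with 2 higher and 8 lower, where the median of all genes was 0.01 and 50.8% were higher and 49.2% lower. These comparisons share the TAC hearts, so a TAC heart that stands high or low enters them with opposite signs. KO-TAC against Control, which does not use the TAC hearts as a group, gave a median of -0.21, with 4 higher and 6 lower, where the median of all genes was 0.04 and 53.8% were higher and 46.2% lower. Without overlap between groups, TAC hearts were above Control hearts for 4 members (14.1% of all genes; Dusp1, Dusp2, Dusp6 and Spry1) and below them for 2 (14%; Dusp10 and Spry2). In KO-TAC against TAC hearts 3 members were lower without overlap, Dusp1, Dusp5 and Spry4 (4.8% of all genes), and 0 were higher (5.17%). In KO-TAC against Control hearts 1 was higher, Spry1 (12.9%), and 2 were lower, Dusp5 and Spry4 (13.6%).

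**Figure D3:**
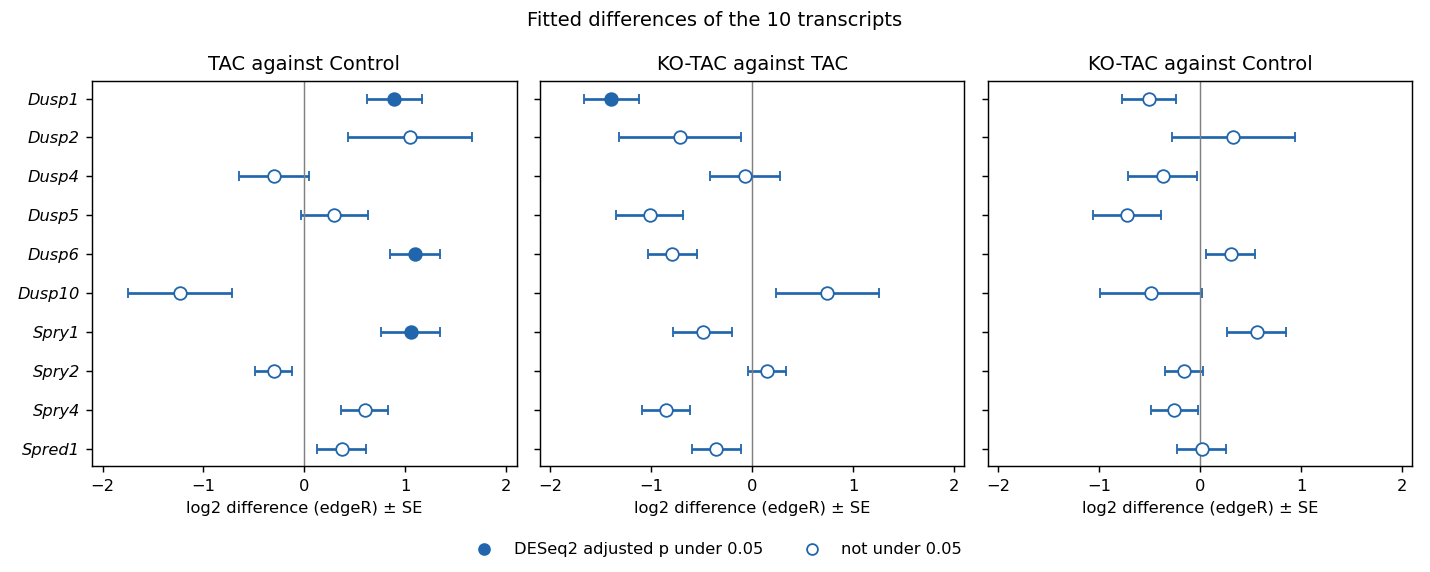
Fitted log2 difference (edgeR, point) with its SE (bar, derived from the F statistic) for the 10 transcripts in TAC against Control, KO-TAC against TAC and KO-TAC against Control hearts. Filled points have a DESeq2 adjusted p under 0.05: Dusp1, Dusp6 and Spry1 in the first comparison and Dusp1 in the second.

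The 10 members summed to 147, 131 and 131 CPM in KO-TAC hearts, 282, 164 and 254 CPM in TAC hearts and 134, 161 and 146 CPM in Control hearts. TAC replicates 1 and 3 stood above all other hearts, and TAC replicate 2 was close to the highest Control heart. Dusp1 made up 22.6% to 27.8% of the counts in that sum in KO-TAC, 38% to 40.3% in TAC and 30.3% to 38.9% in Control hearts. Without Dusp1 the sum was 96.6 to 106 CPM in KO-TAC, 102 to 168 in TAC and 93.5 to 98.7 CPM in Control hearts. Within the TAC group, replicate 2 was the lowest heart for 6 members (Dusp1, Dusp2, Dusp6, Spry1, Spry4 and Spred1) and the highest for 3 (Dusp4, Dusp10 and Spry2).

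Markers of the cells in these hearts moved across the same libraries. The 7 cardiomyocyte markers were all lower in TAC than in Control hearts, and summed to 34700 to 59000 CPM in KO-TAC, 10800 to 68700 in TAC and 66000 to 67600 CPM in Control hearts, with the lowest TAC sum in replicate 3 and the highest in replicate 2. Endothelial markers, 6 of 7 higher in TAC than in Control hearts, summed to 1070 to 1110 CPM in KO-TAC, 1110 to 2330 in TAC and 937 to 1030 CPM in Control hearts. Fibroblast markers, 6 of 6 higher, summed to 713 to 958 CPM in KO-TAC, 534 to 1490 in TAC and 543 to 579 CPM in Control hearts. Macrophage markers, 2 of 6 higher, summed to 120 to 168 CPM in KO-TAC, 110 to 221 in TAC and 127 to 136 CPM in Control hearts. Lymphocyte and neutrophil markers, 5 of 5 and 4 of 4 higher in TAC than in Control hearts, were low, at no more than 4.86 and 10.1 CPM in any heart. Cd3d and Retnlg were at 0 counts in several libraries, Cd3e in TAC replicate 2 and Ly6g, which was not tested, in every library. Erythroid markers, 5 of 5 higher (median log2 difference 0.93), summed to 839 to 1220 CPM in KO-TAC, 762, 1430 and 3480 CPM in TAC and 738 to 1170 CPM in Control hearts, with the highest sum in TAC replicate 3. Smooth muscle and pericyte markers, 3 of 5 higher, summed to 543 to 700 CPM in KO-TAC, 390 to 801 in TAC and 630 to 678 CPM in Control hearts. In KO-TAC against TAC hearts 7 of 7 cardiomyocyte markers were higher, and 6 of 7 endothelial, 5 of 6 fibroblast and 5 of 5 erythroid markers were lower. The fibroblast list includes Tcf21, the gene under which Cre is expressed in KO-TAC mice. Tcf21 averaged 4.04 CPM in KO-TAC, 6.31 in TAC and 5.91 CPM in Control hearts, and an effect of the Cre allele on it was not tested. None of these lists held a gene that passed the edgeR test. DESeq2 called the endothelial markers Pecam1 and Aqp1 (adjusted p of 0.0423 and 0.00113) and the macrophage marker C1qa (0.048) higher in TAC against Control, and 0 markers in KO-TAC against TAC hearts. The lists' part in the members' differences was not tested. In RNA of whole hearts, fewer cells of a type and less RNA per cell cannot be told apart.

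Immediate early genes, which respond to stimulation within minutes and to which Dusp1 belongs by its known behaviour, ordered the TAC hearts as Dusp1 did. The 10 listed genes summed to 111, 95 and 72.5 CPM in KO-TAC hearts, 383, 219 and 338 CPM in TAC hearts and 116, 154 and 108 CPM in Control hearts. All 10 were higher in TAC than in Control hearts, with a median log2 difference of 1.92, and all 10 were lower in KO-TAC than in TAC hearts, with a median of -2.54. DESeq2 called 8 of them in each of these comparisons, and edgeR none. The part of these genes' differences in those of the members was not tested.

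**Figure D4:**
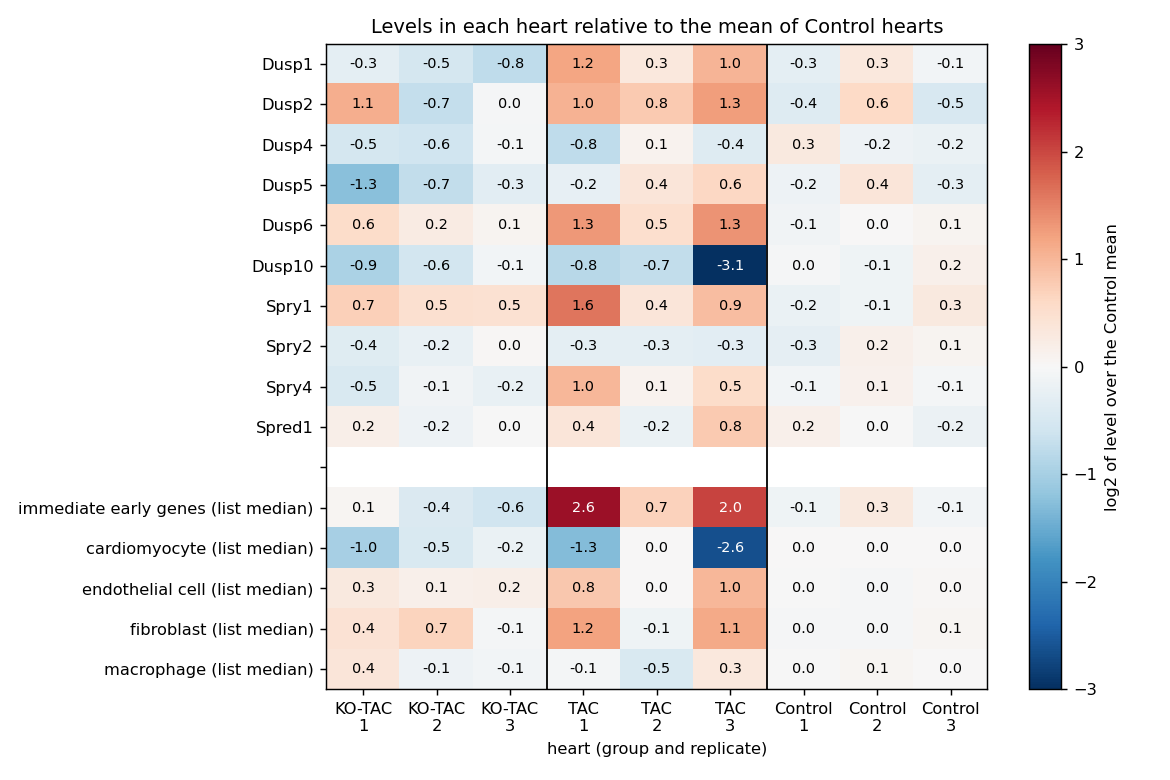
Log2 of each transcript's level over the mean of Control hearts in every KO-TAC, TAC and Control heart, with the median of 5 gene lists below, on a colour scale from -3 (blue) to 3 (red). TAC replicates 1 and 3 are high for Dusp1, Dusp6 and Spry1 and for the immediate early, endothelial and fibroblast lists, and low for the cardiomyocyte list, while TAC replicate 2 is nearer to the Control hearts.

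Of 11 other genes of these families, 9 were tested. In TAC against Control hearts 6 were higher and 3 lower (median log2 difference 0.21), and in KO-TAC against TAC hearts 2 were higher and 7 lower (median -0.19), with 0 called by edgeR or DESeq2. For TAC against Control, limma-voom called Dusp14 and Spred3 higher (adjusted p of 0.0178 and 0.00856; 18.2% of all genes). It called Dusp7 lower (0.00508; 19.8%). Dusp14 was scarce, at 0.615 CPM in TAC and 0.102 CPM in Control hearts, without overlap. Dusp3, which acts on ERK and JNK, had 112, 135 and 114 CPM in KO-TAC hearts, 137, 128 and 127 CPM in TAC hearts and 117, 104 and 110 CPM in Control hearts. Its TAC hearts were above its Control hearts by a log2 difference of 0.25 (adjusted p = 0.446). Dusp7, a relative of Dusp6 in sequence and location, averaged 36.8 CPM in KO-TAC, 33.0 in TAC and 45.5 CPM in Control hearts, so its mean lay on the other side of Control from that of Dusp6. Spred2 varied little, at 25.7 CPM in KO-TAC, 26.8 in TAC and 28.2 CPM in Control hearts, and Spred3 had 4.07, 1.44 and 8.56 CPM in TAC hearts, the lowest again in replicate 2.

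Upstream of the members, ligands and receptors (18 of 19 tested) were higher for 12 and lower for 6 in TAC against Control hearts, with a median log2 difference of 0.22, and higher for 6 and lower for 12 in KO-TAC against TAC hearts, with a median of -0.21. DESeq2 called Ereg and Fgfr3 higher and Fgf9 and Erbb3 lower in TAC than in Control hearts. The 19 genes of the RAS, RAF and ERK cascade were higher for 8 and lower for 11 in TAC against Control hearts (median -0.09), and the 14 genes of the JNK and p38 cascade were higher for 6 and lower for 8 (median -0.35). In that comparison DESeq2 called the adaptor gene Gab1 lower and the p38 gene Mapk11 higher. In KO-TAC against TAC hearts the medians of these cascades were -0.01 and 0.11, with 0 genes called by either tool.

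Known transcriptional targets of ERK (10 of 11 tested) were higher for 6 and lower for 4 in TAC against Control hearts, with a median log2 difference of 0.65, and higher for 4 and lower for 6 in KO-TAC against TAC hearts, with a median of -0.51. Egr1, an immediate early transcription factor that is also in the list of immediate early genes, had 16.65, 10.05 and 11.25 CPM in KO-TAC hearts, 104, 19.2 and 68.5 CPM in TAC hearts and 12.6, 24.9 and 13.1 CPM in Control hearts. Of the 4 targets lower in TAC than in Control hearts, Epha4 had the largest difference (log2 difference -1.455), without overlap between these groups. It averaged 30.7 CPM in KO-TAC, 15.9 in TAC and 43.4 CPM in Control hearts. For TAC against Control its adjusted p was 0.183 by edgeR, 0.0647 by DESeq2 and 0.00995 by limma-voom. In TAC against Control hearts DESeq2 called Etv4, Fos and Egr1 higher, and in KO-TAC against TAC hearts it called Fos and Egr1 lower. Fos, like Egr1, is also in the list of immediate early genes, so the calls in KO-TAC against TAC hearts repeat genes of that list. For TAC against Control the log2 difference of Egr1 was 1.92, with an adjusted p of 0.0108 by DESeq2 and 0.141 by edgeR. For KO-TAC against TAC it was -2.34, with an adjusted p of 0.00415 by DESeq2 and 0.364 by edgeR. TAC replicate 2 was the lowest TAC heart here too and lay within the Control range. The 5 other feedback inhibitors were higher for 3 and lower for 2 in TAC against Control hearts, with a median log2 difference of 0.16. In KO-TAC against TAC hearts 1 was higher and 4 were lower, with a median of -0.21. Among them, Errfi1, which inhibits the EGF receptor, had 13.0, 9.08 and 13.8 CPM in KO-TAC hearts, 45.3, 25.1 and 24.4 CPM in TAC hearts and 15.7, 15.0 and 17.3 CPM in Control hearts. No TAC heart of Errfi1 overlapped with the other groups, and DESeq2 called it in TAC against Control (log2 difference 0.98, adjusted p = 0.0259; edgeR 0.137) and in KO-TAC against TAC hearts (log2 difference -1.40, adjusted p = 0.00177; edgeR 0.251). Socs3, a feedback inhibitor of cytokine receptors, was also called by DESeq2 in these comparisons. Its log2 difference was 1.68 for TAC against Control and -2.05 for KO-TAC against TAC. The TAC hearts of Socs3 spanned 5.48 to 25.7 CPM with a middle value of 8.41 CPM, and its Control hearts 3.71 to 4.61 CPM. For TAC against Control its adjusted p was 0.0324 by DESeq2, 0.157 by edgeR and 0.112 by limma-voom, whose log2 difference was 0.60. Lrig1, another inhibitor of receptor tyrosine kinases, had 21.3, 27.6 and 29.7 CPM in KO-TAC hearts, 15.7, 26.4 and 11.1 CPM in TAC hearts and 32.9, 33.5 and 34.6 CPM in Control hearts. Every TAC heart of Lrig1 was below every Control heart (log2 difference -0.93, adjusted p = 0.154 by edgeR and 0.0575 by DESeq2). Neither of these tools called Lrig1 in any comparison. For TAC against Control, limma-voom called Lrig1 lower and Errfi1 higher (adjusted p of 0.00104 for each).

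The genes whose log2 CPM followed each member most closely over the 9 libraries were found among tested genes with a mean of at least 1 CPM. Genes with a predicted-model name (Gm number or Rik) were left out of that search. Pearson's r is given as a description: the libraries share groups, depth and the divergence of the TAC hearts. For Dusp1 these genes were Apold1 (r = 0.985), Nr4a1 (0.982) and Slc25a25 (0.967), and Nr4a1 was also the closest to Spry4 (0.932). For Dusp6 they were Cebpd (0.984), Ifngr1 (0.983) and Ptger4 (0.980), and for Spry1 Sbds (0.963), App (0.956) and Tmem204 (0.954). For Dusp10 they were Prlr (0.993), Coa7 (0.991) and Mme (0.990). The closest genes of Dusp2, Dusp4, Dusp5, Spry2 and Spred1 are not listed here, among them Atad2b for Spred1 (0.987). Between members, r was highest for Dusp1 with Spry4 (0.90) and Dusp6 with Spry1 (0.88), and lowest for Dusp10 with Spred1 (-0.83). These are the extremes of all pairs, and other pairs were weak, such as Dusp5 with Spry1 (-0.14) and Dusp5 with Dusp6 (0.21).

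Some members share transcribed bases with a gene on the opposite strand. Exons of Spry1 overlap with those of Gm42922 over 710 bases, a gene with 4 to 34 counts a library, and exons of Dusp1 overlap with those of Ergic1 over 11 bases. Exons of Dusp5 overlap with those of AC137853.2 over 547 bases, and no row of the gene count table carries that name. The library kit keeps the strand, but no source used here gives the strand setting of the counting, so the values of these members are uncertain by the reads of those regions.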

How the data were processed

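Hearts gave total RNA for strand-keeping libraries, per the labels' protocols. The values used are the deposited raw counts of the authors, whole numbers for each gene symbol with no sign of scaling. The submitters' processing notes name GRCm38 and mm10 as builds, and as tools DESeq2 1.42.0, StringTie 2.2.1, SAMtools 1.15, HISAT2 2.2.1 and Trim Galore 0.6.10. No source used here says which tool counted, with which annotation and strand setting. All 9 libraries entered 1 edgeR 4.0.16 quasi-likelihood fit (R 4.3.3, limma 3.58.1), two-sided, with TMM factors, filterByExpr at a minimum count of 10, and p adjusted by Benjamini-Hochberg over 19051 genes (threshold 0.05). The biological coefficient of variation was 42.1%. Each SE given is the absolute log2 difference divided by the square root of the F statistic of its test, not a standard error reported by the fit. CPM use TMM-scaled library sizes, and FPKM divide them by merged exon length from GENCODE M21 (GRCm38). TAC replicates 1 to 3 are numbered as in the sample titles, and the table numbers the same libraries 2 to 4. Of rows repeating a symbol (110) none was a member. Libraries of the same group differed by more than sampling noise, with a chi-square of at least 23.42 per degree of freedom. An exact permutation test of 3 against 3 cannot go below 0.1 and was not used. Named pathway genes were the 3 of highest mean CPM in a list, those called by DESeq2 and the other family members; the text gives a selection of them, and 1 is not reported here. The members and lists were chosen with earlier results of these data known. The alternatives were other scaling factors, DESeq2, limma-voom with quality weights, other filters, a fit to the 2 groups compared, a replicate block, removal of mitochondrial genes and each library left out. A robust fit and DESeq2 without each library were added after seeing the data.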

Additional observations from a re-analysis of the deposited data

How the results depend on the processing

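The edgeR count of members past the threshold was 0 in each comparison, and alternatives moved it only in the comparisons with the TAC group. For TAC against Control it was 3 with DESeq2 and 5 with limma-voom, and 0 to 6 as single libraries were left out (at most 4 with edgeR, without TAC replicate 2). For KO-TAC against TAC it was 1 with DESeq2, 4 with limma-voom and 0 to 4 as libraries were left out, with 0 by edgeR in each. It stayed at 0 for KO-TAC against Control under every alternative run. Over all genes the edgeR count of 0 became 1495 with DESeq2, 7230 with limma-voom and 0 to 6946 with a library left out for TAC against Control (edgeR without TAC replicate 2 gave 5477), 185, 996 and 0 to 3490 for KO-TAC against TAC, and 80, 991 and 0 to 342 for KO-TAC against Control, where no filter on low counts gave 2 and a fit to the 2 groups alone 30.

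Of 867 alternative values of single genes, 809 kept direction and call, 40 newly passed and 18 changed sign. The main fit called no member, so no value could lose a call, and keeping the call meant staying uncalled. With limma-voom, Dusp5 in TAC against Control came to -0.082, Dusp4 in KO-TAC against TAC to 0.207, and Dusp2 and Spred1 in KO-TAC against Control to -0.027 and -0.046. Spred1 there came to -0.017 without mitochondrial genes, and Spry2 there to 0.049 with library size alone, which put the median of all genes at 0.29 for TAC against Control and 0.28 for KO-TAC against Control. With a library left out, Dusp4 in KO-TAC against TAC ranged from -0.28 to 0.192, Dusp2 in KO-TAC against Control from -0.329 to 0.752 and Spred1 there from -0.084 to 0.102. The cause was not tested.

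With the replicate number as a block, 0 members and 0 genes passed in each comparison. Deviations of same-numbered libraries correlated between -0.255 and 0.124, so the numbers, which for TAC hearts differ between titles and table, are not shown to pair the hearts. Depth limits Dusp2 most, at 11 to 73 counts a library.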
